A study of Oryza sativa with 4 samples.

Results

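The NaCl-treated root (TR) was compared with the NaCl-treated shoot (TS) of rice seedlings, using the small RNA list of each library. The members were every distinct mature sequence that either list held: 224 in TR and 311 in TS, which made 488 sequences in all, of the 783 that the 4 libraries of the series listed together. A sequence was called conserved where the deposited list gave it a miRBase identifier and predicted where it gave none. TR held 26 conserved and 198 predicted sequences, and TS held 39 and 272. The seedlings were of Oryza sativa cv. Pokkali, a salt-tolerant indica rice, raised in hydroponic culture. On day 9 NaCl was added stepwise to the growth solution of the treated seedlings, up to 1.5%, and they were exposed for 9 h. Control root (CR) and control shoot (CS) came from seedlings that received no NaCl. Root was the submerged part and shoot the aerial part, and each of the 4 libraries was a single one. With 1 library a side there was no replicate check and no test between the tissues. Each ratio is given with an exact 95% interval for the counting of reads, and PCR reads carry no molecular identifiers, so the intervals cover counting error only. In whole root and whole shoot, fewer cells that hold a miRNA and less of that miRNA per cell cannot be told apart. The lists hold no mRNA, so the tissue labels could not be checked against marker genes.

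Plant miRNAs are cut from the stem of a folded precursor RNA by a Dicer-like enzyme, which leaves a duplex of the mature strand and the opposite strand, miRNA*. The mature strand is loaded into an Argonaute protein and guides the cleavage or translational repression of mRNAs with near-perfect complementarity. Many conserved families act on transcription factors that set leaf shape, root growth, phase change and hormone response, and others act on copper proteins, nutrient transport and the small RNA pathway itself. The start of the mature strand matters, since it fixes the seed and the base that Argonaute binds, and 1 precursor can yield strands that differ by a base at either end.

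The conserved sequences that the comparison turned on are written as DNA letters, 5′ to 3′, with bases 2 to 8 (the seed) in capitals. Where a family had several listed sequences they are numbered by reads over TR and TS. The miR166, miR396 and miR167 sets are shown because their members differed between the tissues, miR398, miR319, miR169 and miR394 because their ratios were far from 1, miR168 and miR1425 because they led the shoot list, and miR528 because each tissue listed another arm.
miR166 sequence 1: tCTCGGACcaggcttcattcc
miR166 sequence 2: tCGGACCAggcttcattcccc
miR166 sequence 3: tCGGACCAggcttcaatccct
miR166 sequence 4: gGAATGTTgtctggttcaagg
miR166 sequence 5: tCGGACCAggcttcattccc
miR396 sequence 1: tTCCACAGctttcttgaactt
miR396 sequence 2: tTCCACAGctttcttgaactg
miR396 sequence 3: tCCACAGGctttcttgaacgg
miR167 sequence 1: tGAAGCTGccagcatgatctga
miR167 sequence 2: tGAAGCTGccagcatgatctg
miR167 sequence 3: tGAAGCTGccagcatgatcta
miR167 sequence 4: tGAAGCTGccagcatgatct
miR319: tTGGACTGaagggtgctccct
miR398: tGTGTTCTcaggtcgcccctg
miR169 sequence 1: tAGCCAAGgatgacttgcct
miR394: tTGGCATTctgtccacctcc
miR1425: tAGGATTCaatccttgctgct
miR168: cCCGCCTTgcaccaagtgaat
miR528 sequence 1: tGGAAGGGgcatgcagaggag
miR528 sequence 2: cCTGTGCTtgcctcttccatt
Sequences 2, 3 and 5 of miR166 share a seed, as do all 4 of miR167 and sequences 1 and 2 of miR396, while miR166 sequence 1 starts 2 bases upstream of sequence 2 and so has another seed.

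The predicted sequences that the comparison turned on are written in the same way, by an osa-miR name where one exists and otherwise by a number in order of reads over both lists.
osa-miR12475: aCCGAGGCgcgtcaattgctg
predicted sequence 12: tACCGAGGcgcgtcaattgctg
osa-miR12476: aTTAATAGggacagtcgggggc
osa-miR12477: tTGAGTGCagcgttgatgaacc
predicted sequence 15: tTGAGTGCagcgttgatgaac
osa-miR12478: cGGGGATGgagcgacagaagca
osa-miR12479: tTAGTTCAcatcaatcttcct
osa-miR12481: tATTATAAgacgttttgact
predicted sequence 1: tCCATTGTcgtctagtccgg
predicted sequence 4: tCTCGGATcaggcttcattcc
predicted sequence 10: cTTGGACTgaagggtgctccct
Predicted sequence 12 is osa-miR12475 with 1 more base at the 5′ end, and predicted sequence 15 is osa-miR12477 without its last base. Predicted sequence 10 is miR319 with 1 more base at the 5′ end, and predicted sequence 4 differs from miR166 sequence 1 at 1 base.

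The lists rested on 12126876 reads in TR and 9765004 reads in TS, computed from the deposited counts and RPM (reads per 1000000 of the reads used for miRNA prediction), so that 1 read was worth 0.0825 RPM in TR and 0.102 RPM in TS. Listed sequences took 0.330% of these reads in TR and 0.317% in TS. The lowest listed count was 2 reads in either library. A sequence that a list did not hold is not a count of 0, and no ratio is given for it alone. Sums over families, classes and whole lists added the listed reads only, so an unlisted sequence added nothing to them. The ratios of such sums therefore reflect what was listed as well as its level. In none of the 4 lists did 2 entries overlap at their mature positions, so a list held 1 mature sequence a locus and a second variant from the same precursor arm could not appear there.

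The summed level of all listed sequences was nearly the same in both tissues, but the families that made it up were not. TR held 3298 RPM and TS 3166 RPM, a ratio of 1.04 (1.03 to 1.06). The miR166 family took 85.8% of the listed reads in TR (exact interval 85.4 to 86.1) and 24.4% in TS (23.9 to 24.9). Without miR166, the conserved sequences summed to 310 RPM in TR and 2104 RPM in TS, which was 6.78-fold higher in TS (6.55 to 7.02). Leaving out miR168 as well, which only TS listed, the sums were 310 RPM and 1088 RPM, 3.50-fold higher in TS (3.38 to 3.64). Other sequences that only 1 list held still counted in these sums. The root list was thus led by 1 family and the shoot list by several. Its 5 most abundant sequences took 91.8% of the listed reads in TR and 78.8% in TS, and the first was miR166 sequence 1 in TR, with 57.6% of reads, and miR168 in TS, with 32.1%. Removing the most abundant sequence of each library turned the ratio of the sums to 0.650.

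All 16 families listed in TR were also listed in TS, and TS listed 11 more. A family or sequence was called higher in a tissue where its RPM ratio was 2-fold or more and the counting interval left out 1. By this rule 3 of the 16 families were higher in TR (18.8%), 9 were higher in TS (56.2%) and 4 were neither. The 3 were miR166, miR319 and miR398, and the 9 were miR156, miR160, miR164, miR169, miR171, miR394, miR396, miR529 and miR1425, of which miR156 and miR164 lost their call, at ratios of TR over TS of 0.532 to 0.660, when the libraries were scaled on their shared sequences.

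**Figure D1:**
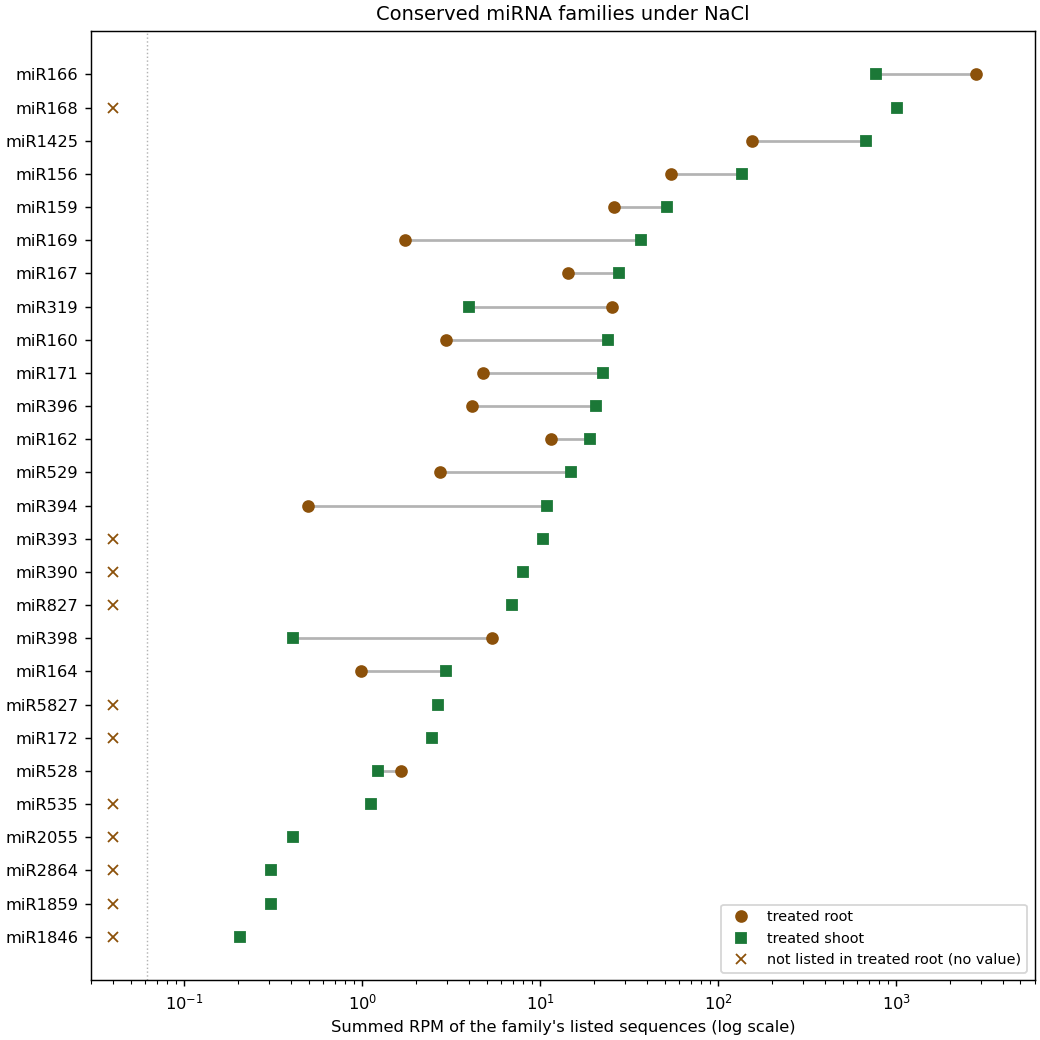
Summed RPM (log scale) of the listed sequences of each of 27 conserved families in TR (circles) and TS (squares), with a cross at the left for a family not listed in TR, which has no value there. Only miR166, miR319, miR398 and miR528 have the circle to the right of the square, and 11 families carry a cross.

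Of 47 sequences listed in both libraries, 8 were higher in TR (17.0%) and 15 were higher in TS (31.9%). Among the 20 conserved ones, 5 were higher in TR, 12 were higher in TS and 3 were neither, with a median log2 ratio of TR over TS of -1.79 and a range from -6.80 to 3.71. Among the 27 predicted ones, 3 were higher in TR, 3 were higher in TS and 21 were neither, with a median of -0.13. Most of those 21 had fewer than 10 reads in a list, where the intervals were wide. Scaling on the shared sequences themselves, by edgeR's TMM, moved every log2 ratio up by 0.74, so the directions below are relative to the reads used for prediction.

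**Figure D2:**
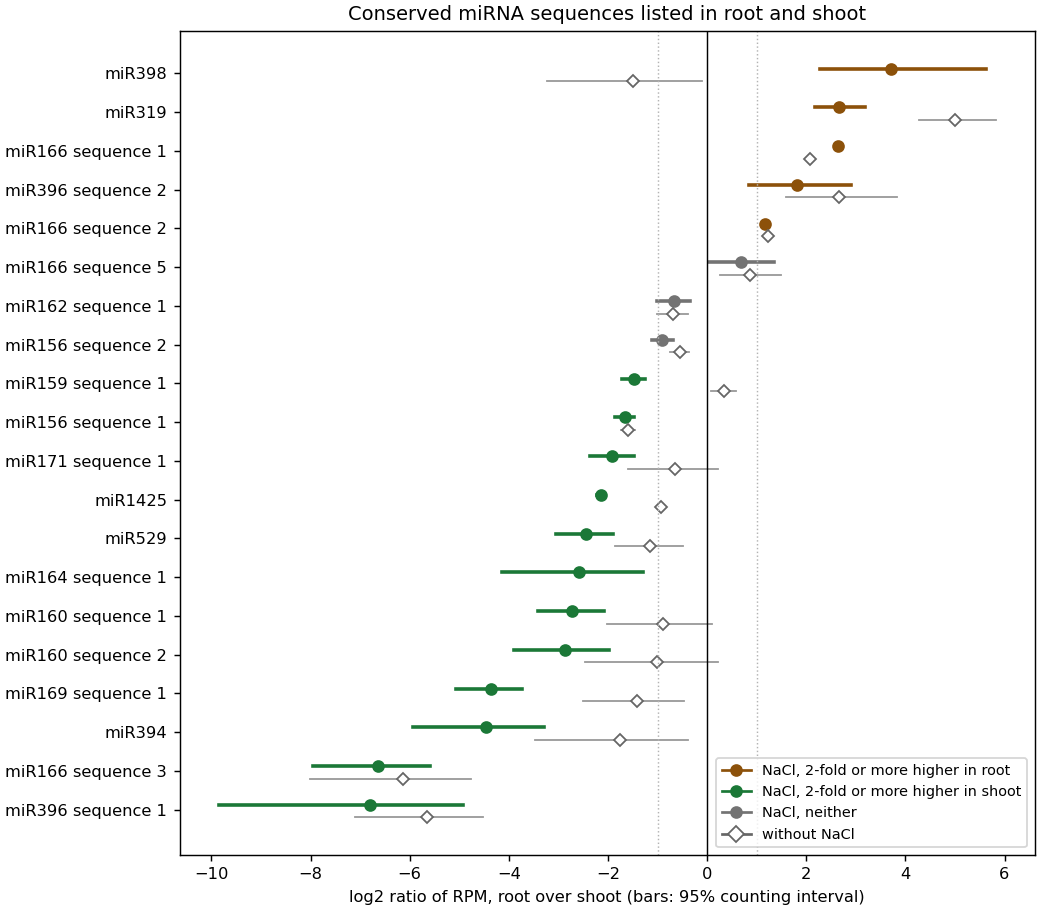
Log2 ratio of RPM, root over shoot, for the 20 conserved sequences listed in TR and TS (filled circles, coloured by call) and for the same sequences without NaCl (open diamonds, where both control lists held them), with 95% counting intervals. The circles run from -6.80 for miR396 sequence 1 to 3.71 for miR398, and the diamond of miR398 lies on the other side of 0 at -1.50.

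miR166 represses the class III HD-ZIP transcription factors that set the upper side of leaves and the pattern of vascular tissue. Its listed sequences summed to 34304 reads (2829 RPM) in TR and 7541 reads (772 RPM) in TS, which was 3.66-fold higher in TR (3.57 to 3.76). The sequences of the family did not share that ratio. Sequence 1 had 23052 reads (1901 RPM) in TR and 2973 (304 RPM) in TS, 6.24-fold higher in TR (6.01 to 6.49). Sequence 2 had 11082 reads (914 RPM) in TR and 3976 (407 RPM) in TS, 2.24-fold higher in TR (2.16 to 2.33). The 20-nt sequence 5, which is sequence 2 without its last base, had 62 reads in TR and 31 in TS, a ratio of 1.61 (1.03 to 2.56), under the 2-fold line. Sequence 3 went the other way, with 7 reads (0.577 RPM) in TR and 561 (57.5 RPM) in TS, 99.5-fold higher in TS (48.0 to 249). It has the seed of sequence 2 and differs from it near the 3′ end.

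The 2 leading miR166 sequences were listed at overlapping positions of the same hairpins, although each matches several loci and the reads were not assigned to one. Sequence 1 was listed at 5 loci in TR and at 1 in TS, and at 4 of the 5 the shoot list held sequence 2, which starts and ends 2 bases further downstream. Of the reads of sequences 1 and 2 together, sequence 1 made up 67.5% in TR (67.0 to 68.0) and 42.8% in TS (41.6 to 44.0). Without NaCl the shares were 50.2% in CR and 36.1% in CS, so sequence 1 had the larger share in root in both pairs.

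The opposite arm of miR166 was listed as a mature sequence in root alone. Sequence 4 had 101 reads (8.33 RPM) in TR. It was not a listed mature sequence of TS, but the miRNA* column of TS held it with 5 reads (0.512 RPM) beside miR166 sequence 2, so both libraries had sequenced it. The ratio of the 2 counts was 16.3-fold higher in TR (6.74 to 51.2).

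Among the regulators of MYB and TCP factors the families pointed opposite ways. miR319 acts on TCP factors that limit cell division in leaves. It had 308 reads (25.4 RPM) in TR and 39 (3.99 RPM) in TS, 6.36-fold higher in TR (4.55 to 9.12). miR159, which acts on GAMYB-like factors, had 226 reads (18.6 RPM) of sequence 1 in TR and 506 (51.8 RPM) in TS, 2.78-fold higher in TS (2.37 to 3.27), a call lost by TMM and by the median of ratios (0.574 of TR over TS by the latter). A second miR159 sequence was listed in TR alone with 90 reads, and the family sums of 316 and 506 reads then gave 1.99-fold higher in TS, just under the 2-fold line. The miR319 ratio rests on the variant that is counted. At 1 of its loci in TR, on chromosome 1, TS listed predicted sequence 10, the form with 1 more base at the 5′ end, with 73 reads, and adding these to the 39 reads of miR319 lowered the ratio to 2.21 (1.78 to 2.77).

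The regulators of SPL factors, which promote the change from juvenile to adult growth, were at lower levels in root. The 21-nt miR156 sequence 1 had 330 reads (27.2 RPM) in TR and 843 (86.3 RPM) in TS, 3.17-fold higher in TS (2.79 to 3.61). The 20-nt sequence 2, which lacks the first base, had 326 and 491 reads, 1.87-fold higher in TS (1.62 to 2.16). miR529, which acts on the same factors, had 33 reads in TR and 145 in TS, 5.46-fold higher in TS (3.72 to 8.22). miR535, which resembles miR156, was listed in TS alone with 11 reads. The listed reads of the class as a whole, with those of miR535 in TS alone, were 2.69-fold higher in TS (2.45 to 2.94). Sequence 1 of miR156 lost its call when the libraries were scaled on their shared sequences, at a ratio of TR over TS of 0.503 to 0.526.

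Of the 4 families of the auxin pathway, 2 were listed in both tissues and 2 in shoot alone. miR160, which represses a group of auxin response factors (ARFs) that act as repressors, had 24 reads of sequence 1 in TR and 128 in TS, 6.62-fold higher in TS (4.26 to 10.7). Its sequence 2 had 12 and 71 reads, 7.35-fold higher in TS (3.96 to 14.9), so the intervals of both overlapped. A sequence 3 was listed in TS alone with 37 reads. miR390, which starts the formation of small RNAs against other ARFs, was listed in TS with 78 reads, and miR393, which acts on the TIR1 and AFB auxin receptors, with 101 reads.

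miR167, which represses ARFs that act as activators, was listed in both tissues, but with no sequence in common. TR listed the 21-nt sequence 2 with 148 reads (12.2 RPM) and the 20-nt sequence 4 with 25 reads. TS listed the 22-nt sequence 1 with 239 reads (24.5 RPM) and the 21-nt sequence 3 with 32 reads. In each pair the shoot form had 1 more base at the 3′ end, and both forms were listed at the same positions: 5 loci on chromosomes 1, 3, 7, 10 and 12 for sequences 2 and 1, and 2 loci on chromosomes 3 and 12 for sequences 4 and 3. The same split held without NaCl, where CR listed sequences 2 and 4 (96 and 26 reads) and CS listed sequences 1 and 3 (616 and 21 reads). Summed over all 4 sequences, miR167 had 173 reads in TR and 271 in TS, 1.95-fold higher in TS (1.60 to 2.37), under the 2-fold line. The levels of the family therefore differed less than the lists, which shared no miR167 sequence.

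miR169 and miR171, which act on NF-YA subunits and on GRAS factors that keep meristems active, were both higher in shoot. miR169 sequence 1 had 21 reads (1.73 RPM) in TR and 348 (35.6 RPM) in TS, 20.6-fold higher in TS (13.3 to 33.7). miR171 sequence 1 had 58 and 176 reads, 3.77-fold higher in TS (2.79 to 5.16). Each family had a second sequence in TS alone, with 11 and 43 reads. miR164, which represses NAC factors, had low counts, with 6 reads of sequence 1 in TR and 29 in TS, at a ratio of TR over TS of 0.167 (0.0566 to 0.408), and 6 reads of a sequence 2 in TR alone.

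miR394, known in Arabidopsis for repressing an F-box gene of the shoot meristem, had 6 reads (0.495 RPM) in TR and 106 (10.9 RPM) in TS, 21.9-fold higher in TS (9.75 to 61.1). miR172, which represses AP2-like factors of flowering, was listed in TS alone with 24 reads. miR396 represses growth-regulating factors that drive cell division, and its sequences 1 and 2 differ only in the last base. Sequence 1 had 2 reads (0.165 RPM) in TR and 179 (18.3 RPM) in TS, 111-fold higher in TS (30.3 to 925). Sequence 2 had 48 reads (3.96 RPM) in TR and 11 (1.13 RPM) in TS, 3.51-fold higher in TR (1.80 to 7.50). So of 2 sequences that differ by 1 base at the 3′ end, sequence 1 was found almost wholly in the shoot list and sequence 2 was higher in the root list. They had 1 and 2 genome matches and were not listed at overlapping positions, so they are not end variants of 1 locus. The family sum was 5.02-fold higher in TS (3.67 to 6.98), and a sequence 3 was listed in TS alone with 12 reads.

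**Figure D3:**
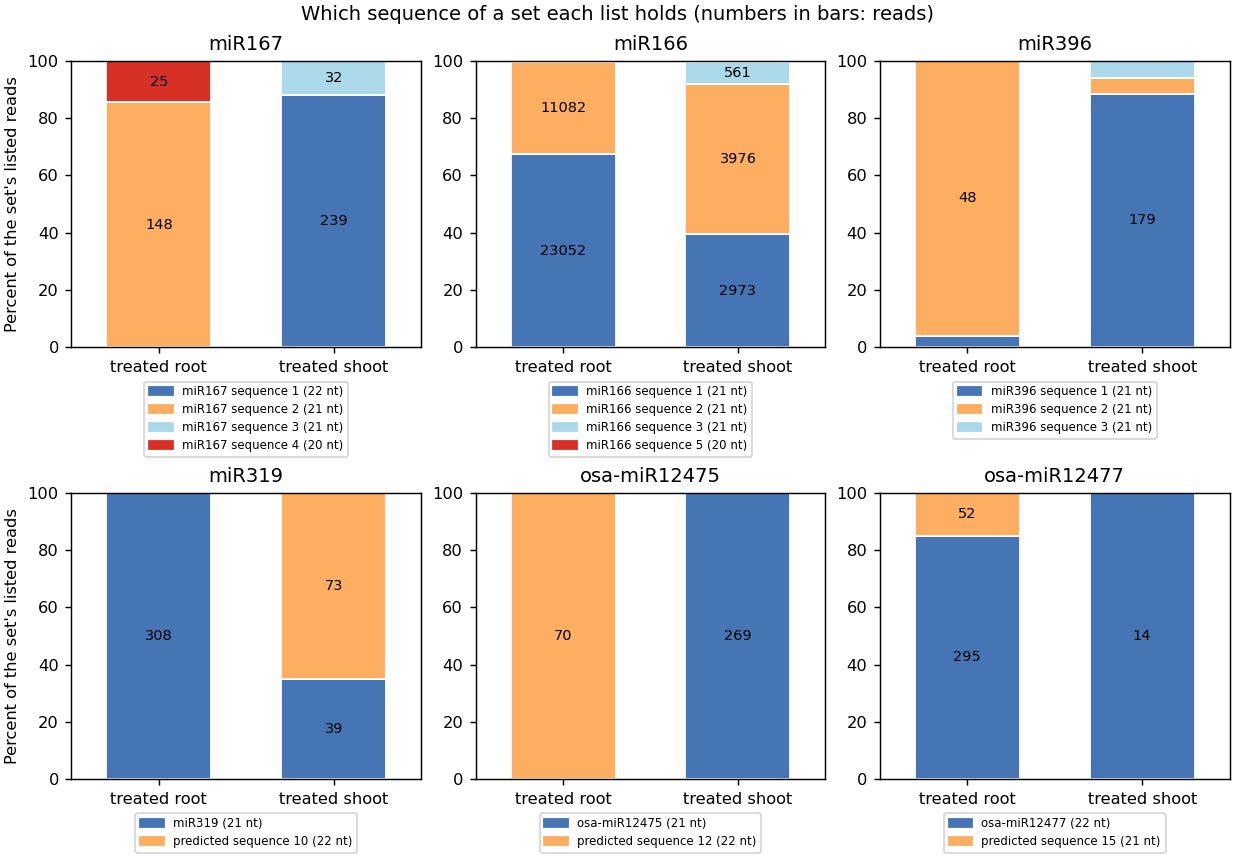
Percent of the listed reads of each set that each sequence took in TR and TS, for 4 conserved families (miR166 without sequence 4, miR319 with predicted sequence 10) and 2 sets of predicted variants, with read numbers in the larger bars. The miR167 and osa-miR12475 bars have no colour in common between root and shoot, and miR396 changes from 48 reads of sequence 2 in root to 179 reads of sequence 1 in shoot.

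Among the conserved sequences listed as mature in both libraries, miR398 had the largest ratio in favour of root, while the copper and nutrient families together had 85 reads in TR and 84 in TS. miR398 represses copper/zinc superoxide dismutases and their copper chaperone. It had 65 reads (5.36 RPM) in TR and 4 (0.410 RPM) in TS, 13.1-fold higher in TR (4.87 to 49.5). The width of this interval comes from the 4 reads of TS. miR827, which acts on phosphate transport genes, was listed in TS alone with 68 reads. No sequence with a miRBase identifier of miR395, miR397, miR399 or miR408 was listed in either treated library. osa-miR12477 and predicted sequence 15, which share 18 bases with a miR397 sequence of CR, had 347 reads in TR and 14 in TS together. They carried no miRBase identifier and are not in the 85 and 84 reads above.

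miR528, a monocot miRNA that acts on copper proteins such as ascorbate oxidase, was listed in both tissues from 1 hairpin, but by different arms. Its hairpin lies on chromosome 3 of the IRGSP-1.0 build, chr3:1667317-1667424, plus strand, with both arms in capitals.
miR528 hairpin: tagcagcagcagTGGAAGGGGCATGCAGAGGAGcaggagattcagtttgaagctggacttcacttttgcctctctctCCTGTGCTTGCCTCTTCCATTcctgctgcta
TR listed the 5′ arm, sequence 1, with 20 reads, and its miRNA* column held sequence 2 with 3 reads. TS listed the 3′ arm, sequence 2, with 12 reads, and its miRNA* column held sequence 1 with 1 read. Sequence 1 was therefore 16.1-fold higher in TR (2.58 to 668), and sequence 2 was 4.97-fold higher in TS (1.34 to 27.4), both on few reads.

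In the small RNA pathway, miR162, which represses the Dicer gene DCL1, had 140 reads of sequence 1 in TR and 180 in TS, a ratio of TR over TS of 0.626 (0.499 to 0.785), under the 2-fold line. A sequence 2 was listed in TS alone with 6 reads. miR168 controls ARGONAUTE1, and what TS listed was its 3′ strand, with 9929 reads (1017 RPM), the most abundant sequence of that library. No miR168 sequence was listed in TR, CR or CS. The hairpin lies at chr2:1553143-1553247, minus strand, 105 nt long with 77.1% G and C, and is shown with the listed strand and the leading miRNA* in capitals.
miR168 hairpin: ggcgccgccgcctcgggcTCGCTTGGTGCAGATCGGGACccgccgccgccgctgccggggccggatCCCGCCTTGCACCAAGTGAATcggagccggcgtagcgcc
The 5′ strand, the form known to act on ARGONAUTE1, was in the miRNA* column of TS with 1339 reads (137 RPM), and all 8 miRNA* forms summed to 1928 reads. They made up 16.3% of the reads of that hairpin (15.6 to 16.9), the most miRNA* reads of any entry in TS. The hairpin had no entry in TR, so the level of either strand in root is not known from the lists.

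miR1425, a rice miRNA that acts on pentatricopeptide repeat genes, was the second most abundant sequence of TS. It had 1871 reads (154 RPM) in TR and 6653 (681 RPM) in TS, 4.42-fold higher in TS (4.19 to 4.65). The other rice-restricted families were listed in TS alone and at low counts, with 26 reads of miR5827, 4 of miR2055, 3 of miR1859, 3 of miR2864 and 2 of miR1846. miR2118 and miR2275, which start phased small RNAs in grasses, were listed in neither library.

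The conserved sequences listed in 1 tissue alone were 6 in TR, with 6 to 148 reads, and 19 in TS, with 2 to 9929 reads. The 6 of TR were miR159 sequence 2, miR164 sequence 2, miR166 sequence 4, miR167 sequences 2 and 4, and miR528 sequence 1, and every one belonged to a family that TS listed in another form. Of these 6, 5 were also listed in CR and none in CS. Of the 19 of TS, 12 were listed in CS and 3 in CR. miRNA* reads were listed at 30 of 54 conserved entries in TR and at 40 of 69 in TS, and the entry with the most of them in TR was miR166 sequence 1 on chromosome 10, with 116.

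Few predicted sequences were shared. Both libraries listed 27, which was 13.6% of the predicted sequences of TR and 9.93% of those of TS. They held 60.1% of the predicted reads in TR and 25.1% in TS. TR alone listed 171, of which 15 had 10 reads or more, and TS alone listed 245, of which 20 did. The median count was 2 reads in both lists. Predicted sequences summed to 159 RPM in TR and 289 RPM in TS, 1.82-fold higher in TS (1.72 to 1.93).

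Of the 9 shared predicted sequences with 10 reads or more in both lists, 3 were higher in TR and 1 was higher in TS. osa-miR12477 had 295 reads (24.3 RPM) in TR and 14 (1.43 RPM) in TS, 17.0-fold higher in TR (9.95 to 31.4). Its first 18 bases are the last 18 of a miR397 sequence that only CR listed, and miR397 is known for repressing laccases, another group of copper enzymes. It matched the genome once, and its hairpin is shown with the listed strand and the leading miRNA* in capitals, at chr2:3280774-3280902, minus strand.
osa-miR12477 hairpin: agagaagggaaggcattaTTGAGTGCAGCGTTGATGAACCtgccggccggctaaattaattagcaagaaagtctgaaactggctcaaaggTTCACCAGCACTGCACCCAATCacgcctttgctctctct
TR listed 14 miRNA* reads for this hairpin and TS listed none. Predicted sequence 15, the same sequence without its last base, was listed in TR alone with 52 reads, at another hairpin, chr6:28489785-28489896, plus strand, and with 2 genome matches.

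The other ratios among these 9 were nearer to 1. osa-miR12479 had 40 reads in TR and 15 in TS, 2.15-fold higher in TR (1.16 to 4.18). Predicted sequence 1, which matched the genome at 10 places, had 398 and 153 reads, 2.09-fold higher in TR (1.73 to 2.54). Both calls were close to the 2-fold line. osa-miR12481, also with 10 matches, had 39 reads in TR and 78 in TS, 2.48-fold higher in TS (1.67 to 3.75), a call lost per trimmed read (0.506 of TR over TS), by the median of ratios and by TMM. Predicted sequence 4, the sequence close to miR166, had 127 and 167 reads, 1.63-fold higher in TS (1.29 to 2.07). osa-miR12476 had 50 and 56 reads, at a ratio of TR over TS of 0.719 (0.481 to 1.07). Predicted sequences 7, 13 and 16 had intervals that held 1, with 76 and 81, 33 and 29, and 26 and 18 reads. The other shared predicted sequences called higher in TS were predicted sequence 20, with 4 reads in TR and 22 in TS, and predicted sequence 32, with 4 and 12, on intervals of 2.32 to 27.3 and 1.13 to 15.8. The call of predicted sequence 32 was lost per raw read, per trimmed read, by the median of ratios and by TMM, at 0.326 to 0.448 of TR over TS.

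The most abundant predicted sequences listed in 1 tissue alone were higher in number of reads in TS. osa-miR12478 led with 549 reads (56.2 RPM) in TS, matched the genome at 12 places, and was listed with 556 reads in CS and in neither root library. osa-miR12475 followed with 269 reads (27.5 RPM), then predicted sequence 6 with 216, predicted sequence 10 with 73 and predicted sequence 11 with 70. In TR the first 5 were predicted sequence 12 with 70 reads (5.77 RPM), predicted sequence 15 with 52, predicted sequence 21 with 25, and predicted sequences 23 and 24 with 22 each. osa-miR12474, osa-miR12480 and osa-miR12482 were listed in neither treated library.

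osa-miR12475 and predicted sequence 12, first in root, were listed at a common hairpin, chr6:2678154-2678330, minus strand, where TR held the 22-nt form and TS the 21-nt form that starts 1 base later. The last base was the same. TS listed osa-miR12475 also at chr6:3204205-3204379, minus strand, where TR listed nothing, and its reads were not divided between the 2 hairpins. The 70 reads of the root form and the 269 of the shoot form gave 4.77-fold higher in TS (3.66 to 6.30). Without NaCl, CR listed osa-miR12475 itself with 16 reads and CS with 95.

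Such pairs were counted over all loci. TR and TS listed different sequences that overlapped on the same strand in 17 pairs, of which 13 involved predicted sequences alone. The 5′ end was the same in 4 pairs and differed in 13, so in most pairs the seed differed too. The 3′ end was the same in 8. The ends lay within 1 base of each other in 13 pairs. Among the predicted sequences listed in 1 tissue alone, 16 of 171 in TR and 18 of 245 in TS had such a partner or another arm of the same hairpin in the other list. They held 156 of the 770 reads of that group in TR and 468 of the 2114 in TS. With at least 10 reads, 4 of 15 in TR and 4 of 20 in TS had a partner. The other tissue-only predicted listings had none.

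The predicted sequences of the 2 lists differed in their first base, in opposite directions by sequences and by reads. Thymine (uracil in the RNA), which the AGO1 protein of Arabidopsis prefers at this place, came first in 39.4% of 198 predicted sequences in TR (32.5 to 46.6) and in 56.3% of 272 in TS (50.1 to 62.2). By reads the order was the other way, with thymine first in 70.6% of the predicted reads in TR and 38.6% in TS. A few sequences weighed heavily in these read shares. Predicted sequence 1 and osa-miR12477 start with thymine and had 398 and 295 of the 1929 predicted reads in TR. In TS osa-miR12478, osa-miR12475 and predicted sequence 6 start with other bases and had 549, 269 and 216 of 2824. Guanine came first in 21.7% in TR (16.2 to 28.1) and in 8.82% in TS (5.74 to 12.8). The 27 shared ones started with thymine in 21 cases and never with guanine. Among the 20-nt sequences that TR alone listed, 17 of 25 started with guanine, against 6 of 39 in TS. Of the conserved sequences, 23 of 26 in TR and 33 of 39 in TS started with thymine. In the predicted sequences with 10 reads or more the shares of thymine were 45.8% of 24 in TR and 45.2% of 31 in TS, so the shares were close there.

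**Figure D4:**
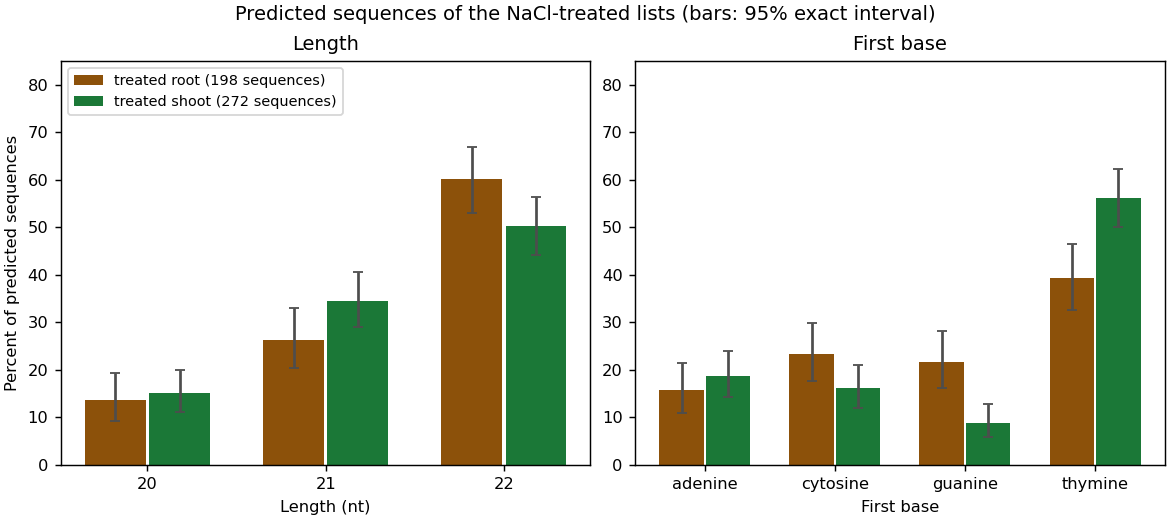
Percent of predicted sequences by length (left) and by first base (right) in TR (198 sequences) and TS (272), with 95% exact intervals. Thymine is first in 39.4% in TR and 56.3% in TS, guanine in 21.7% and 8.82%, and 22 nt is the most frequent length in both.

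In length the 2 lists differed less. Sequences of 21 nt took 94.9% of the listed reads in TR (94.7 to 95.1) and 89.7% in TS (89.4 to 90.0), most of them conserved. Among the predicted sequences 22 nt was the most frequent length, in 60.1% in TR (52.9 to 67.0) and 50.4% in TS (44.3 to 56.5). No conserved sequence of 22 nt was listed in TR, whereas TS listed 3 with 244 reads, of which 239 were miR167 sequence 1.

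Over all predicted entries, the hairpins had medians in each list that lay within the quartiles of the other. Their median length was 99 nt in TR (quartiles 79 and 142) and 115 nt in TS (86 and 175), and the median G and C content was 42.9% (34.6 to 49.8) and 39.1% (29.8 to 47.8). The median adjusted free energy (per 100 nt) was -41.7 kcal/mol in TR and -39.3 kcal/mol in TS, with quartiles that overlapped widely. Among entries with a single genome match the G and C medians were 39.8% and 39.0%, and the order of the free energies turned, to -39.2 kcal/mol in TR and -40.0 kcal/mol in TS. With at least 10 reads the lists differed more. There 52 entries in TR had medians of -56.6 kcal/mol and 50.0% G and C, against -39.1 kcal/mol and 42.6% for 58 entries in TS. The -56.6 kcal/mol lay outside the quartiles of all predicted entries in TS (-53.3 and -32.4). Conserved entries lay at -52.8 kcal/mol in TR and -51.9 kcal/mol in TS. A single genome match was given for 65.1% of predicted entries in TR and 66.9% in TS, and miRNA* reads for 13.6% and 14.5%, so these shares were close.

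The same tissues without NaCl gave a second root to shoot comparison, CR against CS. There the median log2 ratio of 50 shared sequences was -0.30 per read used for prediction, against -0.68 for 47 shared sequences with NaCl. The 2 sets of sequences differ. Per raw read the median with NaCl was -0.39, and by the study's totals the one without NaCl would be lower than -0.30. The order of the 2 medians therefore depends on the scale and shows no effect of NaCl. For the 29 sequences listed in all 4 libraries the ratio of ratios was computed, TR over TS divided by CR over CS, with an exact interval of the 4 counts. It was 2-fold or more above 1 with an interval that left out 1 in 3 sequences (10.3%), 2-fold or more below in 9 (31.0%), under 2-fold with such an interval in 4, and held 1 in 13. These ratios were computed per read used for prediction alone. Other scalings were not tried for CR and CS. Any of them would move all 29 by a common factor, so these counts depend on the scale. All 9 that shifted towards shoot were conserved, as were 19 of the 29 sequences. The sign of the log2 ratio, per read used for prediction, was the same in both pairs for 21 sequences and opposite for 8. As a description across these 29 sequences, which share their libraries and are not replicates, Pearson's r of the log2 ratios was 0.73 and Spearman's rho 0.70.

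**Figure D5:**
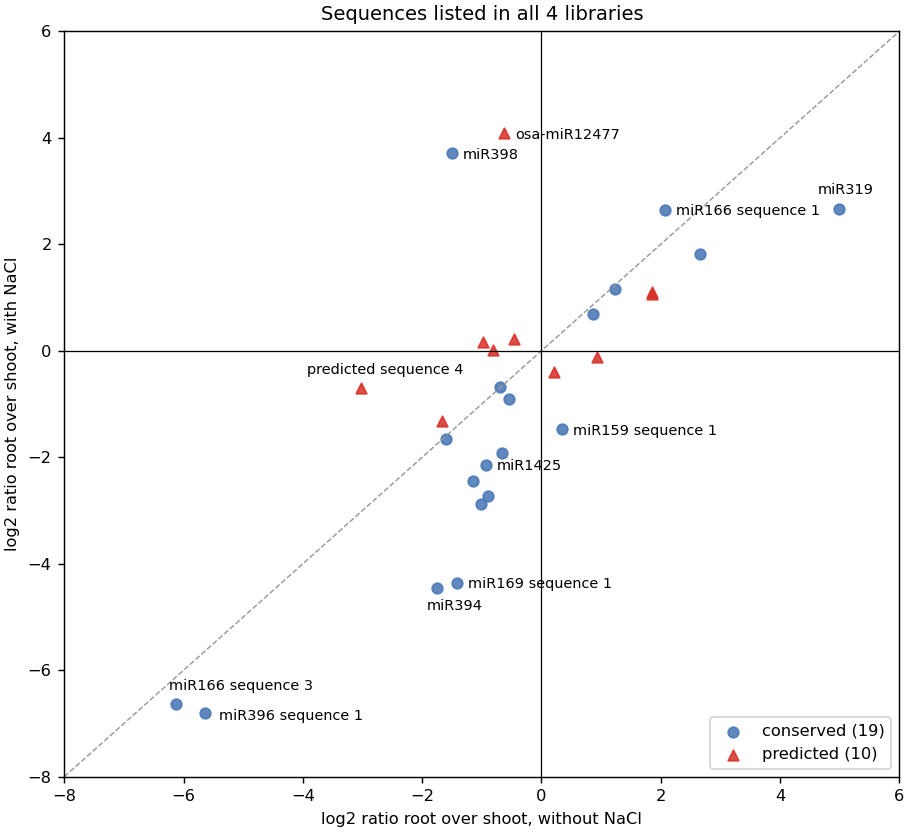
Log2 ratio of RPM, root over shoot, with NaCl (vertical) against without NaCl (horizontal) for the 29 sequences listed in all 4 libraries, 19 conserved (circles) and 10 predicted (triangles), with the line of equal ratios dashed. miR398 and osa-miR12477 lie far above the line on the left, and miR169 sequence 1, miR394 and miR159 sequence 1 lie below it.

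The 3 sequences that shifted towards root under NaCl, per read used for prediction, were miR398, osa-miR12477 and predicted sequence 4. miR398 had 5 reads in CR and 27 in CS, 2.84-fold higher in shoot (1.08 to 9.43), so its direction turned and the ratio of ratios was 37.1 (8.01 to 191). osa-miR12477 had 63 and 185 reads, 1.54-fold higher in shoot, and a ratio of ratios of 26.2 (13.9 to 51.5). Predicted sequence 4 had 38 and 590 reads, 8.15-fold higher in shoot, which became 1.63-fold under NaCl, a ratio of ratios of 4.99 (3.29 to 7.65). In these 3 the shoot lead seen without NaCl was smaller or reversed with it.

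Relative to the reads used for prediction, 9 sequences shifted towards shoot. They were miR159 sequence 1, both miR160 sequences, miR169 sequence 1, miR171 sequence 1, miR319, miR394, miR529 and miR1425. By the study's totals, CR and CS were closer in raw reads than in reads used for prediction. Per raw read all ratios of ratios would be higher, and some of these 9 would no longer pass the 2-fold line. Per read used for prediction, miR159 sequence 1 turned direction. Its ratio was 1.27 without NaCl, on 216 reads in CR and 325 in CS, and 0.360 under NaCl. The ratio of ratios was 0.284 (0.224 to 0.361). By the study's totals of raw reads, trimmed reads or reads unaligned with NONCODE, the 1.27 would lie below 1. This turn therefore holds only per read used for prediction. miR169 sequence 1 had 11 and 56 reads without NaCl, and its lead in shoot was 7.70 times larger with NaCl (3.16 to 17.7). For miR394 it was 6.53 times larger (1.46 to 27.4). miR319 stayed higher in root, but the ratio of 31.9 without NaCl (19.3 to 56.6) was 5.02 times smaller with it (2.66 to 9.83). CS listed predicted sequence 10 with 81 reads beside the 16 of miR319, and those 81 are not counted in the 31.9. Both the ratio without NaCl and the size of the change therefore rest on the variant that is counted. For miR1425 the change was 2.32 times (2.11 to 2.54). Sequence 1 of miR166 had a ratio of ratios of 1.49 (1.42 to 1.56). Those of miR166 sequence 3 and both miR396 sequences had intervals that held 1 but were wide, as in miR396 sequence 1, which moved 2.22-fold towards shoot (0.393 to 22.7), so a change of several-fold was not detectable at these counts.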

How the data were processed

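Small RNAs of 4 libraries were sequenced on the Illumina platform, and the authors trimmed adapters (cutadapt, version not given in the sources used here), removed other non-coding RNA, searched miRBase and predicted hairpins on the IRGSP-1.0 rice genome. Per library they deposited the read count of each mature sequence, its RPM and log2 RPM, the percent of G and C, the free energy score and the p-value of each hairpin. The authors' RPM divides the count by the reads used for prediction.

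Each distinct sequence was taken once (it is repeated per locus). Ratios of RPM were computed with exact conditional intervals (scipy 1.17.1), and a call needed 2-fold and an interval without 1. Interval code was tested on simulated data. 6 other scalings were tried for the ratios of TR over TS, among them edgeR 4.0.16 TMM, and none for CR over CS. No replicate exists, so no p-value was computed. Between 3 and 5 lines per file were empty here and not used. The study's own library totals scaled 3 alternatives. Named were all conserved sequences and families of TR and TS, the osa-miR names, the 5 highest and 5 lowest ratios among predicted sequences with 10 reads or more (9 qualified), the 5 most abundant per tissue alone and the leading miRNA* entries. Members, lists and target classes were chosen with earlier results of these data known. Hairpin sequences came from the deposited lists.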

Additional observations from a re-analysis of the deposited data

Results flagged for a closer look

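The sequences below had a root to shoot ratio, per read used for prediction, that pointed opposite ways with and without NaCl. The ratio of ratios was 2-fold or more from 1, with a counting interval that left out 1. With 1 library per group, the difference was not tested beyond counting error. For miR398 the ratio of root over shoot with NaCl was 37.1 times that without NaCl, on counts of 65 in TR, 4 in TS, 5 in CR and 27 in CS. For osa-miR12477 it was 26.2 times, on counts of 295, 14, 63 and 185. For miR159 sequence 1 it was 0.284 times, on counts of 226, 506, 216 and 325. Its ratio without NaCl, 1.27, was near 1, and other scalings were not tried for it. By the study's raw read totals it would lie below 1, and the ratio would then point the same way with and without NaCl. Both miR398 and osa-miR12477 rest on a low count in TS.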

How the results depend on the processing

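Of 115 recomputed summary values, 77 kept their direction and size class. Of 282 recomputed ratios of single sequences and families, 237 stayed the same by call and interval. Another 15 lost a call, 6 gained one and 24 without a call left their counting interval. No called ratio could change direction here, since the largest log2 shift was 0.74 and a call needs 2-fold. The median log2 ratio of shared sequences, -0.68, was -0.39 per raw read, -0.35 per trimmed read, -0.51 per read unaligned with NONCODE, 0 by the median of ratios (by construction) and 0.063 by TMM. The total, conserved and predicted RPM ratios were 1.27, 1.33 and 0.669 per raw read, 1.31, 1.37 and 0.691 per trimmed read, and 1.17, 1.22 and 0.615 per read unaligned with NONCODE; without the most abundant sequence of each library the first 2 were 0.650 and 0.666, below 1. Predicted sequences higher in TS fell from 3 to 1 per trimmed read, by the median of ratios, by TMM and with at least 10 reads in both lists, and to 0 among sequences with a single genome match, where conserved calls were 1 for TR and 4 for TS. That filter left 23 shared sequences, and 3 and 12 conserved sequences listed in TR or TS alone. With at least 10 reads, 24 sequences were shared and 15 and 20 predicted sequences were in TR or TS alone. Counted by hairpin loci, 104 were shared and 3 conserved loci were in TR alone. With at least 10 reads, 21-nt shares were 95.8% and 91.0% and 22-nt shares 1.66% and 3.90% in TR and TS, thymine was first in 45.2% in TS, and TR hairpins had medians of -56.6 kcal/mol and 50.0% G and C. Apart from filters that leave fewer sequences, the cause was not tested. Under the scalings, miR156 sequence 1, miR159 sequence 1, osa-miR12481, predicted sequence 32 and the miR156 and miR164 families lost their call, and miR166 sequence 5 and the miR159, miR167 and miR528 families gained one.

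With 1 library per tissue, biological spread is unknown, and counts of 2 to 10 reads give wide intervals. Whether an unlisted sequence was unsequenced, removed or passed over for another variant of its locus cannot be told apart. No paired analysis was possible because each group held 1 library.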

Other observations

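Several predicted sequences lay close to conserved ones. Of 443 predicted sequences of TR and TS, 7 aligned without a gap to a listed conserved sequence over at least 18 bases with at most 2 mismatches: osa-miR12477 and predicted sequence 15 (miR397), predicted sequence 4 (miR166), predicted sequence 10 (miR319), predicted sequence 110 (miR169), predicted sequence 75 (miR171) and predicted sequence 21 (miR479). TR alone listed predicted sequences 15, 21 and 75 with 52, 25 and 7 reads, and TS alone listed predicted sequences 10 and 110 with 73 and 4 reads.

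Of 31 seeds that only predicted sequences shared, 19 had members in both lists. The largest set held 6 sequences with the seed TCAGATT, of which 1 was listed in TR with 2 reads and 5 in TS with 10 reads in all.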
